A study of Homo sapiens with 5 samples.

Results

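The genes described here encode the kinetochore and the spindle checkpoint, 40 genes chosen by name from textbook knowledge of the centromere (CENP) proteins, the outer kinetochore and the checkpoint. The list was made with earlier results of these data known. All 40 were found in the deposited table of 58174 genes, each as 1 row, and all 40 were among the 17049 genes tested, those with a mean of at least 1 TPM (a transcript level scaled for gene length and for the library's total) over the 5 libraries. RNA was sequenced from Ishikawa cells, a long-established line from a human endometrial carcinoma, grown with 10% fetal bovine serum. In 3 libraries, called silenced here (sh-LINC00958), the cells carried a lentiviral short hairpin RNA that targets a long non-coding transcript, LINC00958. The 2 control libraries (sh-NC) came from cells with the lentiviral negative control. Both groups were selected with puromycin at 2.5 µg/ml from 72 h after infection. The sources used here do not say how many hairpins were used, whether replicates were separate cultures or when cells were harvested. The p-values therefore reflect the spread of these 5 libraries alone, which may be technical.

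Kinetochores are assembled on each centromere around nucleosomes that contain the histone variant CENP-A. A constitutive network of CENP proteins binds these nucleosomes and carries the outer kinetochore, whose NDC80 complex grips microtubules. Kinetochores without microtubules recruit checkpoint proteins, which make a complex containing MAD2 and BUBR1 that holds CDC20 inactive and delays anaphase until every chromosome is attached. Transcripts of many of these genes peak late in the cell cycle, and dividing tumour cells, such as endometrial carcinoma lines, express most of them.

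The targeted transcript itself, LINC00958, stood at 67.2, 67.1 and 58.4 TPM after silencing against 119.3 and 137.4 TPM in controls, so the groups did not overlap (log2 fold change -0.99, limma adjusted p = 0.0119). The libraries listed 27896 to 29411 genes above 0, and their read depth is unknown because TPM does not keep it. The 40 genes together took 2338, 2436 and 2223 TPM in the silenced libraries against 2647 and 2767 TPM. Of 8 markers of endometrial epithelium, EPCAM, KRT8, KRT18, KRT19, CDH1, PAX8 and SOX17 were expressed (summed level 2395 to 2569 TPM against 2423 and 2429 TPM), and 1 of them, KRT18, rose (log2 fold change 0.44, limma adjusted p = 0.0211). With the GC and length trend taken out, KRT18 was not called (0.27, limma adjusted p = 0.0756) and PAX8 was called lower (-0.37, limma adjusted p = 0.0318). In contrast, the estrogen receptor gene ESR1 averaged 0.00495 TPM after silencing, and both controls listed it at 0. The fibroblast, leukocyte and endothelial lists summed to 4.94 to 5.87, 1.38 to 3.66 and 4.39 to 6.88 TPM over the 5 libraries, with DCN and CD3E listed at 0 in all of them.

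Of the 40 genes, 14 fell in the silenced cells, 2 rose and 24 did not pass the test. The test was limma on log2(TPM + 1) with Benjamini-Hochberg adjustment over all 17049 genes and a threshold of 0.05. Over all genes tested, 5.68% were called lower and 4.12% higher, so the share of the 40 that rose (5%) was near that of all genes. The 14 lower genes were MAD2L1, CENPQ, CENPU, NUF2, CENPE, CENPK, CENPC, SPC25, MIS12, SKA1, NDC80, SGO2, ZWILCH and CENPN, and the 2 higher genes were ZW10 and CENPA. Of these, MAD2L1 and ZW10 alone were still called once the trend on GC content and length was removed, as described below. In the lowest GC bin, which held 24 of the 40 genes, 15.8% of all genes tested were lower. The fitted log2 fold change was below 0 for 31 of the 40 genes, against 49.8% of all genes, and its median was -0.39 over the 40 genes and 0.0014 over all genes tested. Library values did not overlap between the groups for 27 genes that were lower and 8 that were higher, which is 67.5% and 20% of the 40, against 25.5% and 24.4% of all genes tested. Because the list was made with earlier results of these data known, the shares set against all genes are description only. In bulk RNA, fewer cells in the phase that expresses a gene and less RNA per cell cannot be told apart. The number of calls depended on single libraries, as the closing section gives. MAD2L1 alone kept its call whichever sh-LINC00958 library was left out. It lost the call when either sh-NC library was left out, which leaves 1 control. Its log2 fold change lay between -1.47 and -1.29 when 1 library was left out.

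**Figure D1:**
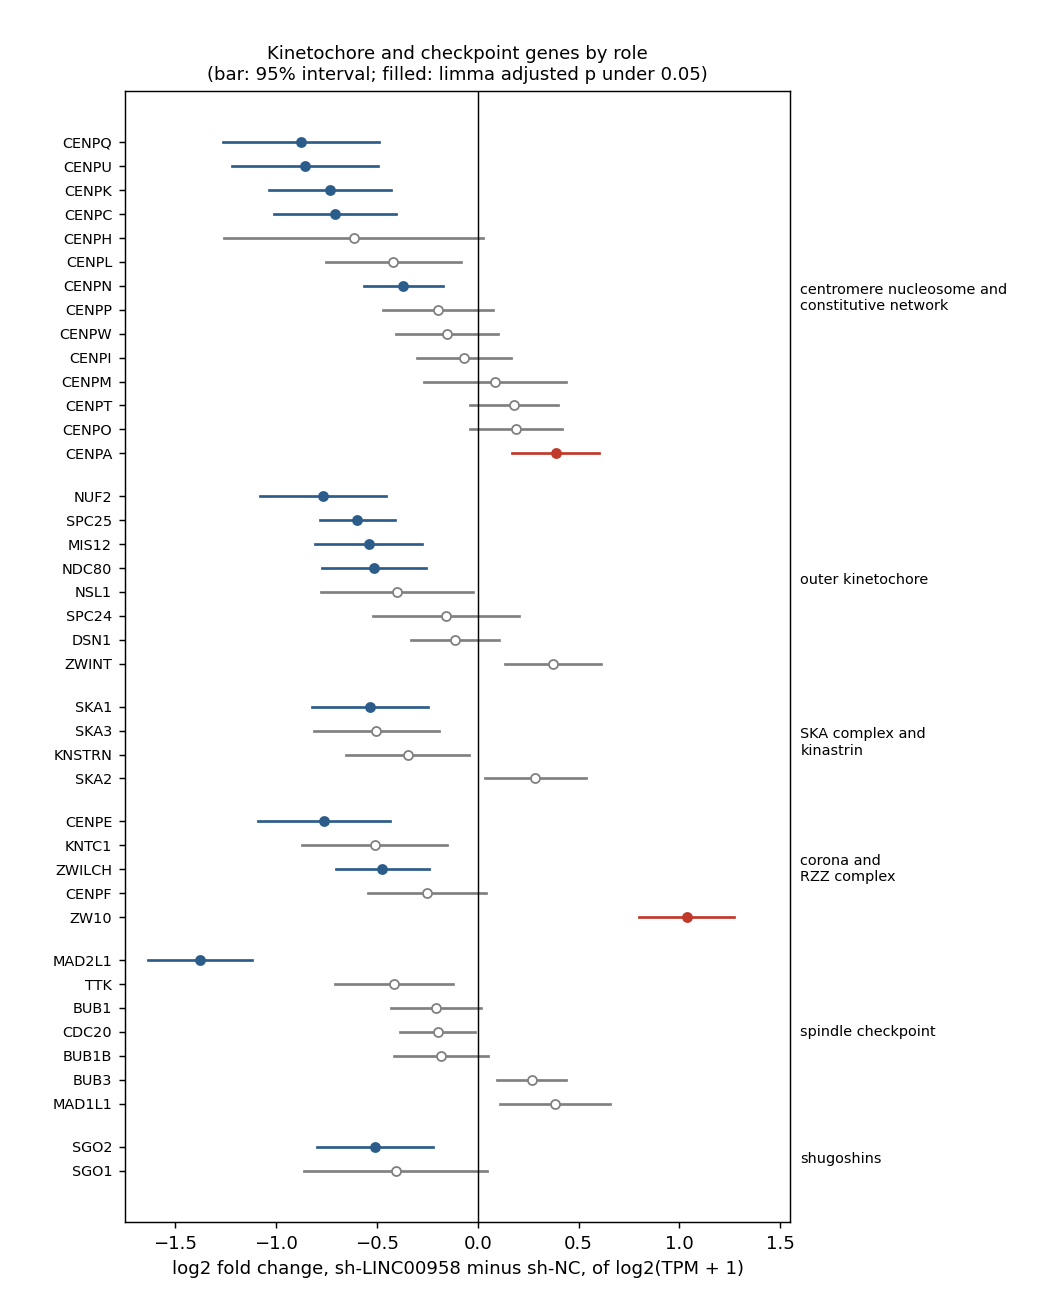
Log2 fold change of each of the 40 genes (x axis, sh-LINC00958 minus sh-NC, on log2(TPM + 1)) with its 95% interval, ordered by role (y axis). Filled points are the 14 genes called lower (blue) and the 2 called higher (red), and open points are the 24 that did not pass; MAD2L1 at -1.38 and ZW10 at 1.04 lie farthest from 0.

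The promoters of 5 genes are shown because these genes mark the extremes of the set: MAD2L1 and ZW10 had the largest fall and rise, SPC25 had the smallest p of the outer kinetochore genes, CENPE the largest fall among corona genes, and CENPA was the other gene that rose. Each is the 250 bases before the RefSeq transcription start (GRCh38.p14), 5′ to 3′ on the gene's strand. Capitals mark 3 kinds of motif of cell cycle promoters, searched on both strands: the cell cycle genes homology region, called CHR (TTTGAA or TTCGAA), the CCAAT box (CCAAT), and an E2F-type core (the letters TTGGCGC or the letters TTCCCGC, or else either TTCGCGC or the letters TTGCCGC).
MAD2L1 promoter, chr4:120066849-120067098, minus strand: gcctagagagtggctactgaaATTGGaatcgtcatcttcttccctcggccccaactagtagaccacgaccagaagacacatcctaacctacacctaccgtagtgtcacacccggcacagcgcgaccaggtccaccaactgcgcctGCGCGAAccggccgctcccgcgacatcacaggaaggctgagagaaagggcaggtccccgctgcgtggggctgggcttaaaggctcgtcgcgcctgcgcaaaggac
SPC25 promoter, chr2:168890431-168890680, minus strand: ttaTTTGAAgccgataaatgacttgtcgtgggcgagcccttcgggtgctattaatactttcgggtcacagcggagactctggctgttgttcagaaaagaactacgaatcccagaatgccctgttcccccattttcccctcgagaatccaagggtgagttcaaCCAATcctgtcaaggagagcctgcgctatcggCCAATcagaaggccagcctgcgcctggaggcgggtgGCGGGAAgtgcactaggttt
CENPE promoter, chr4:103198344-103198593, minus strand: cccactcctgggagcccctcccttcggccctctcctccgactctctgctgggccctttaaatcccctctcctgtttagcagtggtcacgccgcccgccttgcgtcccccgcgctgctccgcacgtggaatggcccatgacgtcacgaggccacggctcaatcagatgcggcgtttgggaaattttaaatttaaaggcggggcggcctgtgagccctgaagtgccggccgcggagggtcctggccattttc
ZW10 promoter, chr11:113773693-113773942, minus strand: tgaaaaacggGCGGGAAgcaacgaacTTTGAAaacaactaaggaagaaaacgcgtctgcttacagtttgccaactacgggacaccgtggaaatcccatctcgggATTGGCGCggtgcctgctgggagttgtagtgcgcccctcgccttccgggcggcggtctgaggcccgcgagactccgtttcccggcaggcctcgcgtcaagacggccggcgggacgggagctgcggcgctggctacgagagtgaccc
CENPA promoter, chr2:26785806-26786055, plus strand: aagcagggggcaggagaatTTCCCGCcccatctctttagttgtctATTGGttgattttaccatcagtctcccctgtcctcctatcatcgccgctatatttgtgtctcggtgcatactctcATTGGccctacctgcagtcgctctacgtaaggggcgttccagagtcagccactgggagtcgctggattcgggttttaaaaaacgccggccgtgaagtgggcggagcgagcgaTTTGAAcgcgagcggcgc
The search window also included the 50 bases after the start, which are not printed. Positions count from the start, negative before it. In MAD2L1 a CHR match began at 25, and in SPC25 one began at -3 and ran past the start, so neither is in capitals. CENPA had a CHR match at -18, CCAAT matches at -205 and -130 and an E2F-type core at -231. In ZW10 the CHR match began at -224, and a CCAAT match on the other strand shared bases with an E2F-type core. CENPE held none of the 3 motifs in this window.

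RefSeq promoters matched 34 of the 40 genes by symbol, 39 promoters in all because some genes have several. A CHR match was present in 19 of the 39 (48.7%), compared with 16.4% of all 35116 promoters and 11.6% of the 14853 promoters of genes tested here. CCAAT matches were present in 61.5%, compared with 34.6% and 35%, and E2F-type cores in 33.3%, compared with 13% and 18.9%. Split by the test, CHR matches were in 7 of the 16 promoters of lower genes, in both promoters of the higher genes and in 10 of the 21 promoters of genes that did not pass. E2F-type cores were in 9, 2 and 2 of these promoters. The last 2 were both windows of a single gene, ZWINT, that overlap, and MIS12 gave 2 of the 9. These matches describe letters in a window and do not show that a factor binds there.

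The spindle checkpoint held the largest single change. MAD2L1 encodes MAD2, the checkpoint protein that binds and inhibits CDC20. Its level was 28.85, 31.96 and 27.78 TPM in sh-LINC00958 and 73.5 and 83.3 TPM in sh-NC, so every silenced library lay far below both controls. MAD2L1 fell to 37.7% of control, with means of 29.5 ± 2.17 TPM (SD, n = 3) and 78.4 ± 6.93 TPM (SD, n = 2) and a log2 fold change of -1.38 (limma adjusted p = 0.00599, SE 0.105, 95% interval -1.63 to -1.12). The gene (ENSG00000164109) lies on chromosome 4, 120055608 to 120067074, minus strand, in GRCh38.

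The other 6 checkpoint genes did not pass. MAD1L1, whose product MAD1 anchors MAD2 at kinetochores, had 15.6, 13.5 and 14.8 TPM against 11.1 and 10.8 TPM, higher in every silenced library (log2 fold change 0.38, limma adjusted p = 0.0816, 95% interval 0.11 to 0.66). BUB3, an adaptor that docks BUB1 and BUBR1 on the outer kinetochore, was the most abundant of these genes in the silenced cells, with 291, 286 and 276 TPM against 229 and 243 TPM (log2 fold change 0.27, limma adjusted p = 0.0651). It passed with median-ratio scaling (adjusted p = 0.0475), with quantile normalization (0.0455) and once the GC and length trend was taken out (0.0336). TTK, the MPS1 kinase that starts checkpoint signalling, had 45.0, 55.9 and 48.7 TPM against 62.6 and 70.9 TPM, and was lower in all 3 silenced libraries (log2 fold change -0.42, limma adjusted p = 0.0808). BUB1, a kinase and scaffold, averaged 104.7 ± 7.46 against 120.9 ± 6.38 TPM. BUB1B, which encodes BUBR1, had 88.2, 94.9 and 80.04 TPM against 97.3 and 101.3 TPM, below both controls in every silenced library. The 95% intervals of their log2 fold changes were -0.43 to 0.016 and -0.41 to 0.053, which hold values from a modest fall to almost no difference. CDC20, the activator of the anaphase promoting complex, had 271, 254 and 262 TPM against 287 and 316 TPM (log2 fold change -0.20, limma adjusted p = 0.145).

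MAD2L1 was also set against the genes of its partners within each library. The ratio of MAD2L1 to MAD1L1 TPM was 1.85, 2.36 and 1.87 in sh-LINC00958 and 6.62 and 7.68 in sh-NC. That of MAD2L1 to its target CDC20 was 0.106, 0.126 and 0.106 against 0.256 and 0.263. Each ratio separated the groups completely, with an exact two-sided permutation p = 0.1, the smallest that 3 libraries against 2 allow. Over the 29 ratios computed, 18 reached that value (Benjamini-Hochberg adjusted p = 0.161 for each of these exact tests), so no ratio could pass a threshold of 0.05. The transcripts of MAD2L1 have a GC content of 39.2%, against 62.2% for MAD1L1 and 56.9% for CDC20. GC content moved with the fold changes over all genes, as described below, and its part in these ratios was not tested.

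**Figure D2:**
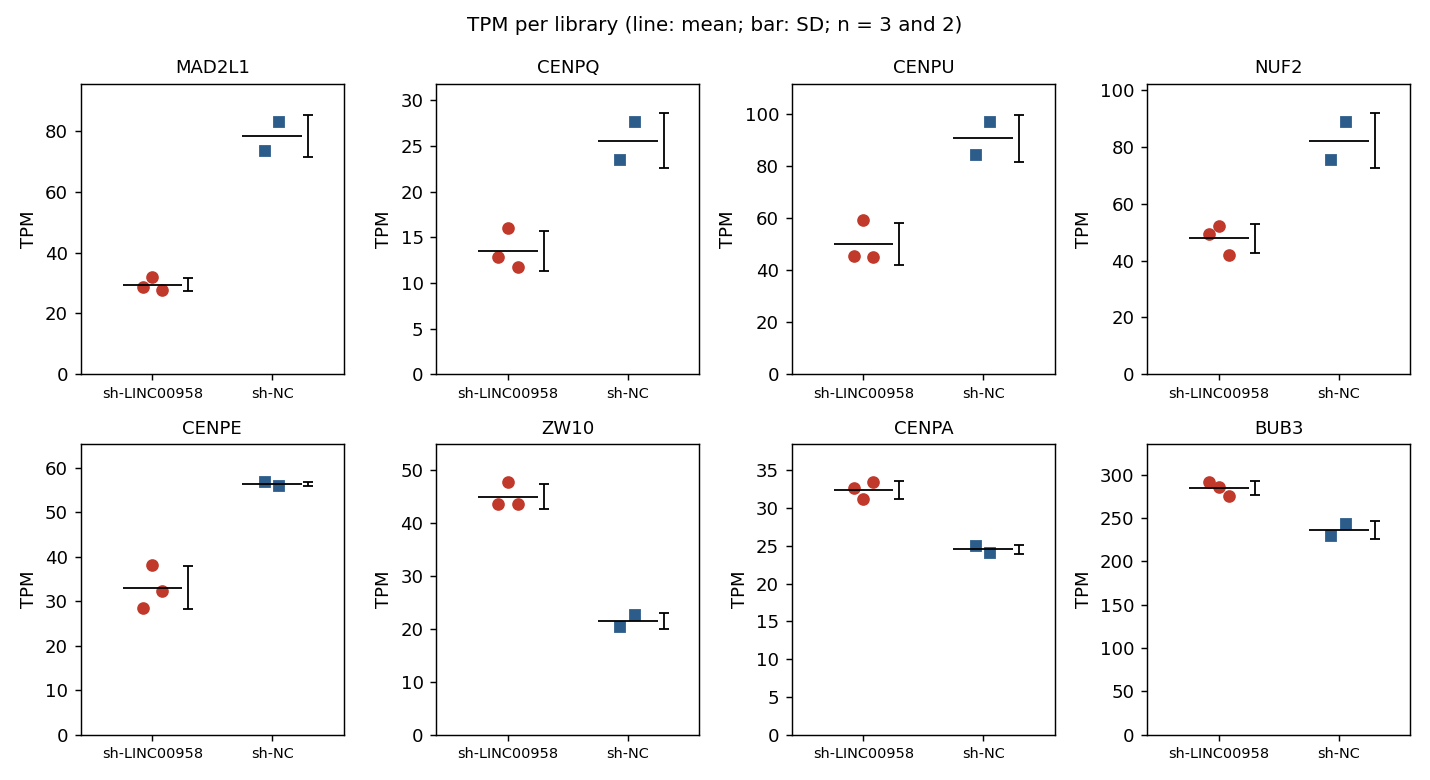
TPM per library of 8 genes, with sh-LINC00958 libraries as red circles and sh-NC libraries as blue squares (y axis from 0). The line is the mean and the bar the SD; the groups do not overlap in any panel, with MAD2L1 at 27.78 to 31.96 TPM below 73.5 TPM and ZW10 at 43.7 to 47.7 TPM above 22.6 TPM.

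The corona and RZZ group, which forms the outermost layer of an unattached kinetochore, split sharply. ZW10 encodes the subunit of the RZZ (ROD, ZW10, Zwilch) complex that recruits dynein, and it also acts in membrane traffic between the Golgi and the endoplasmic reticulum. Its level was 43.7, 47.7 and 43.7 TPM in sh-LINC00958 and 20.4 and 22.6 TPM in sh-NC. All 3 silenced libraries were above both controls, and ZW10 rose to 209.8% of control (log2 fold change 1.04, limma adjusted p = 0.0089, SE 0.0964, 95% interval 0.80 to 1.27). ZW10 (ENSG00000086827) lies on chromosome 11, 113733187 to 113773811, minus strand.

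The 2 other RZZ subunits moved the opposite way or were lower without passing. ZWILCH fell, with 43.2, 48.9 and 42.5 TPM against 62.7 and 62.4 TPM (log2 fold change -0.47, limma adjusted p = 0.0371). KNTC1, which encodes ROD, had 51.5, 69.1 and 54.3 TPM against 77.4 and 88.6 TPM (log2 fold change -0.51, limma adjusted p = 0.0812), and silenced replicate 2 was the closest to the controls. The ratio of KNTC1 to ZWILCH stayed within 1.19 to 1.41 in sh-LINC00958 and 1.23 to 1.42 in sh-NC. The ratio of ZW10 to ZWILCH was 1.01, 0.976 and 1.03 against 0.325 and 0.362 (exact two-sided permutation p = 0.1, adjusted p = 0.161). Transcript GC content was 43.7% for ZW10, 39.7% for ZWILCH and 40.5% for KNTC1, and its part in these ratios was not tested.

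CENPE, the kinesin that carries chromosomes to the spindle equator, fell. Its level was 28.6, 38.2 and 32.3 TPM against 56.8 and 56.0 TPM, a log2 difference of -0.76 (limma adjusted p = 0.0288, 95% interval -1.09 to -0.44). CENPF, a large corona protein, had 49.0, 57.6 and 45.2 TPM against 60.5 and 59.7 TPM. Its groups did not overlap, but the difference was small relative to the spread (log2 fold change -0.25, limma adjusted p = 0.212).

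In the centromere nucleosome and constitutive network 5 of 14 genes fell, 1 rose and 8 did not pass. Of all genes tested, 5.68% were lower and 4.12% higher, and 15.8% were lower in the lowest GC bin. Once the GC and length trend was taken out, 0 of the 14 were lower and 0 higher. CENPA, the histone H3 variant that marks the centromere, had 32.6, 31.2 and 33.4 TPM in sh-LINC00958 and 24.97 and 24.1 TPM in sh-NC, and it rose by 0.39 on the log2 scale (limma adjusted p = 0.048, 95% interval 0.17 to 0.60). The difference was close to the threshold. CENPC, which reads CENP-A nucleosomes and is the base of the network, fell from 20.9 ± 0.738 TPM (SD, n = 2) to 12.4 ± 1.32 TPM (SD, n = 3). Its libraries gave 13.4, 10.9 and 13.0 TPM against 20.3 and 21.4 TPM (log2 fold change -0.71, limma adjusted p = 0.0288). The ratio of CENPA to CENPC was 2.44, 2.85 and 2.57 against 1.23 and 1.13, with no overlap (exact two-sided permutation p = 0.1, adjusted p = 0.161). Transcript GC content was 49.4% for CENPA and 37.5% for CENPC, and its part in this ratio was not tested.

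The CENP-O, P, Q and U proteins form one module, which docks the mitotic kinase PLK1 through CENP-U. CENPU fell, with 45.5, 59.3 and 45.1 TPM against 84.4 and 97.2 TPM (log2 fold change -0.86, limma adjusted p = 0.0282). CENPQ fell by a like amount, with 12.9, 15.99 and 11.8 TPM against 23.4 and 27.7 TPM (log2 fold change -0.88, limma adjusted p = 0.0305). The ratio of CENPU to CENPQ was 3.53 to 3.84 in sh-LINC00958 and 3.51 to 3.60 in sh-NC. CENPO was higher in every silenced library, at 51.6, 53.6 and 48.3 TPM against 42.6 and 46.9 TPM, without passing (log2 fold change 0.19, limma adjusted p = 0.224). The ratio of CENPU to CENPO therefore went from 1.98 and 2.07 in the controls to 0.882, 1.11 and 0.934. Their transcripts differ in GC content, 39.0% for CENPU and 52.8% for CENPO, and its part in this ratio was not tested. CENPP had 10.7 to 11.8 TPM against 12.4 and 13.5 TPM (log2 fold change -0.20, limma adjusted p = 0.280). CENPO and CENPP share 27% and 38% of their annotated exon bases with ADCY3 and IPPK on the other strand. The strand setting of the counting is not given, so reads of these pairs may not be told apart. The same holds, over smaller shares of their exon bases, for the called genes CENPN (12.8%, with CMC2), CENPU (11.7%, with PRIMPOL), MIS12 (9.53%, with DERL2) and ZWILCH (3.26%, with RPL4, which averaged 2000 TPM). SGO2 and NUF2 shared 1.01% and 0.149% with KCTD18 and RGS5, and CENPA shared 6.96% with SLC35F6 on its own strand.

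**Figure D3:**
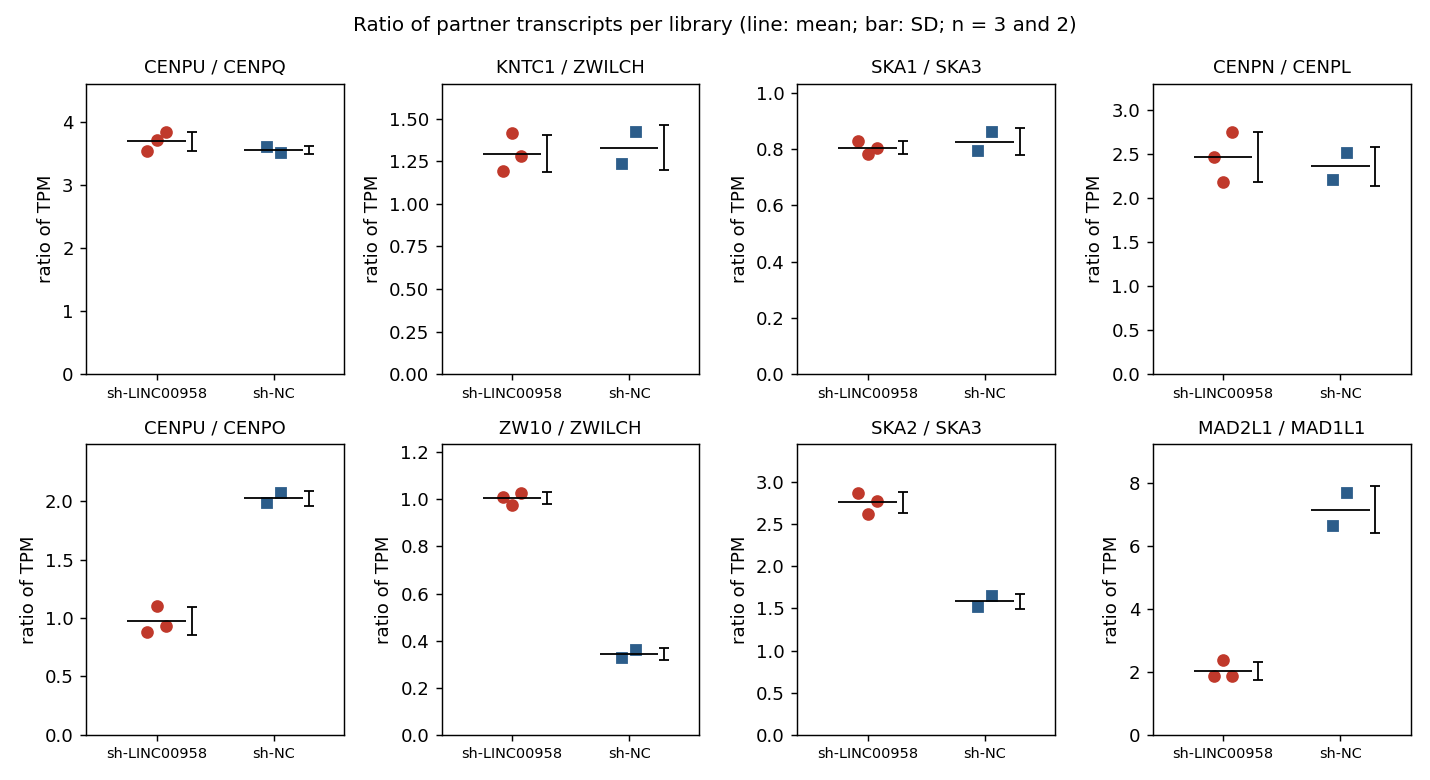
Ratio of the TPM of 2 genes of one complex in each library, with sh-LINC00958 as red circles and sh-NC as blue squares (y axis from 0; line, mean; bar, SD). In the upper row the groups overlap, and in the lower row they are apart: ZW10 to ZWILCH is 0.976 to 1.03 against 0.325 and 0.362.

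The CENP-H, I, K and M module, which links CENP-C to the rest of the network, was also uneven. CENPK fell, with 45.9, 57.4 and 46.2 TPM against 79.6 and 86.4 TPM (log2 fold change -0.73, limma adjusted p = 0.0277). CENPH had a large difference and a large spread, at 21.0, 30.02 and 15.6 TPM against 30.6 and 36.5 TPM (log2 fold change -0.62, limma adjusted p = 0.176, 95% interval -1.26 to 0.026). CENPI was the member of the network with the smallest difference, at 26.9, 28.4 and 25.2 TPM against 27.5 and 28.8 TPM, and its groups overlapped (log2 fold change -0.07, 95% interval -0.30 to 0.17). CENPM overlapped too, with silenced replicate 3 highest at 77.7 TPM and the other 4 libraries between 58.65 and 62.8 TPM. The ratio of CENPK to CENPI was 1.70, 2.02 and 1.83 against 2.89 and 3.00. Transcript GC content was 35.6% for CENPK and 41.2% for CENPI, and its part in this ratio was not tested.

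CENP-N and CENP-L bind the CENP-A nucleosome together. CENPN fell, with 52.2, 52.2 and 49.6 TPM against 64.6 and 68.6 TPM (log2 fold change -0.37, limma adjusted p = 0.044). CENPL had 21.2, 23.9 and 18.1 TPM against 29.3 and 27.3 TPM (log2 fold change -0.42, limma adjusted p = 0.104). Their ratio overlapped between the groups, at 2.18 to 2.75 and 2.20 to 2.51. CENPT and CENPW encode histone fold proteins that pair and recruit the NDC80 complex. CENPT had 44.5, 42.2 and 47.4 TPM against 39.4 and 39.2 TPM, higher in every silenced library without passing (limma adjusted p = 0.227). CENPW had 79.9, 70.4 and 67.7 TPM against 76.7 and 85.0 TPM, with overlapping groups (limma adjusted p = 0.362).

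Of the 8 outer kinetochore genes, 4 fell and 4 did not pass, where 5.68% of all genes tested were lower. Once the GC and length trend was taken out, 0 of the 8 were lower and 0 higher. NDC80, NUF2, SPC24 and SPC25 encode the rod-shaped NDC80 complex, with NDC80 and NUF2 at the microtubule end and SPC24 and SPC25 at the centromere end. NUF2 fell, with 49.2, 52.2 and 42.0 TPM against 75.3 and 89.0 TPM (log2 fold change -0.77, limma adjusted p = 0.0269). NDC80 fell, with 54.1, 56.6 and 46.6 TPM against 74.9 and 75.4 TPM (log2 fold change -0.52, limma adjusted p = 0.0388). SPC25 had very little spread within either group, at 44.04, 45.04 and 43.7 TPM against 66.5 and 68.5 TPM, and fell by 0.60 on the log2 scale (SE 0.0759, limma adjusted p = 0.0167). SPC24 differed less, at 51.1, 48.6 and 37.5 TPM against 52.3 and 49.1 TPM, and its groups overlapped (log2 fold change -0.16, 95% interval -0.52 to 0.20). SPC24 transcripts have a GC content of 57.1%, against 40.3% for SPC25, 40.8% for NDC80 and 39.1% for NUF2.

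MIS12, DSN1 and NSL1 encode subunits of the MIS12 complex, the bridge between the inner and outer kinetochore. MIS12 fell, with 27.5, 31.0 and 26.0 TPM against 39.8 and 42.9 TPM (log2 fold change -0.54, limma adjusted p = 0.0377). DSN1 had 41.0, 45.1 and 40.6 TPM against 44.8 and 46.5 TPM, and silenced replicate 2 lay between the controls (log2 fold change -0.11, 95% interval -0.33 to 0.11). NSL1 averaged 35.7 ± 6.22 against 47.0 ± 1.11 TPM (limma adjusted p = 0.145). ZWINT, a scaffold partner of KNL1, was higher in every silenced library, at 155.6, 132.3 and 140.3 TPM against 114.6 and 104.9 TPM, and did not pass (log2 fold change 0.37, limma adjusted p = 0.0645).

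The SKA complex, which strengthens the hold of NDC80 on microtubules, had 1 call among 3 subunits. Among all genes tested 5.68% were lower and 4.12% higher. SKA1 fell, with 33.9, 39.8 and 31.7 TPM against 49.9 and 52.3 TPM (log2 fold change -0.53, limma adjusted p = 0.0452). SKA3 had 40.9, 50.7 and 39.5 TPM against 63.0 and 60.8 TPM, a difference of like size that did not pass (log2 fold change -0.50, limma adjusted p = 0.0618). SKA2 was the exception, with 117.5, 133.1 and 109.6 TPM against 95.9 and 100.2 TPM, above the controls in every silenced library (log2 fold change 0.29, limma adjusted p = 0.126). The ratio of SKA1 to SKA3 was 0.784 to 0.829 against 0.792 to 0.861, while that of SKA2 to SKA3 was 2.87, 2.62 and 2.78 against 1.52 and 1.65. SKA2, SKA3 and SKA1 transcripts are alike in GC content (40.02%, 41.6% and 42.5%), and its part in these ratios was not tested. SKA2 has an annotated pseudogene copy, SKA2P1, at a mean of 1.62 TPM. KNSTRN, which encodes the spindle protein kinastrin, averaged 56.0 ± 4.31 against 71.8 ± 10.9 TPM (limma adjusted p = 0.126).

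Shugoshins protect cohesin at centromeres until anaphase. SGO2 fell, with 21.4, 24.8 and 20.0 TPM against 32.1 and 31.4 TPM (log2 fold change -0.51, limma adjusted p = 0.0492). SGO1 had 28.98, 20.96 and 31.0 TPM against 32.8 and 38.8 TPM, with replicate 2 the lowest of the silenced libraries (log2 fold change -0.41, limma adjusted p = 0.197).

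**Figure D4:**
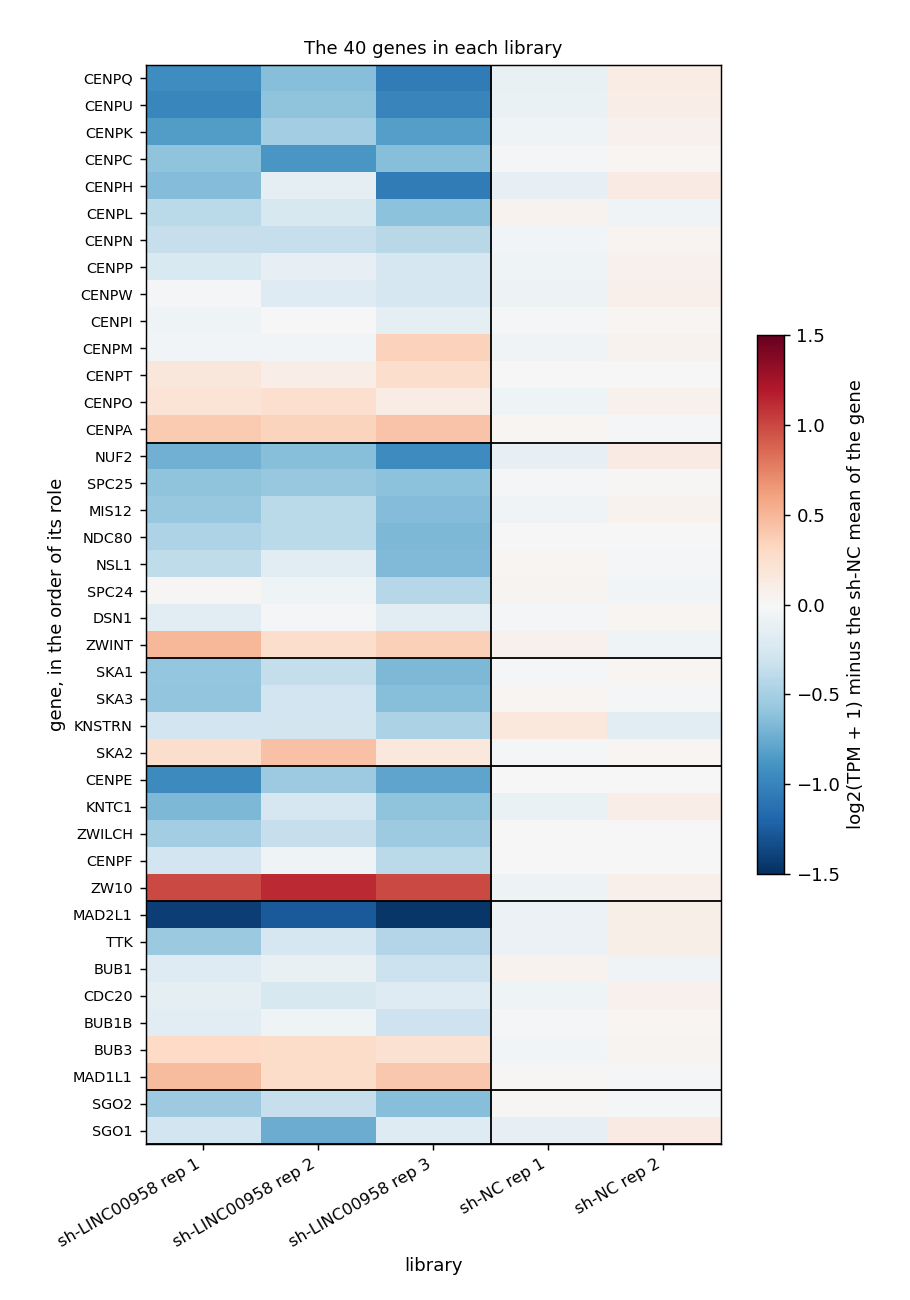
Each of the 40 genes (y axis, grouped by role with black lines between groups) in each of the 5 libraries (x axis), as log2(TPM + 1) minus the sh-NC mean of that gene. Blue is below and red above that mean; MAD2L1 and ZW10 stand out in all 3 sh-LINC00958 libraries, and replicate 2 is the palest of the 3 for most genes that fell.

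The silenced libraries were not alike. For 12 of the 14 lower genes the highest of the 3 sh-LINC00958 values was that of replicate 2, and for 11 of them the lowest was that of replicate 3. The median difference of the 40 genes from the sh-NC mean was -0.32, -0.24 and -0.43 on the log2 scale in replicates 1, 2 and 3. Without sh-LINC00958 replicate 2, 18 genes were lower (8.72% of all genes tested) and 3 were higher (5.3%). These included all 16 original calls, joined by CENPH, SKA3, KNTC1 and TTK among the lower genes and ZWINT among the higher.

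Transcript GC content moved with the fold changes, in these genes as in all genes. Values from GENCODE release 29 were found for all 40 genes, with a median of 42.4% and a range of 33.9% to 62.2%. The correlation of GC content with the log2 fold change was r = 0.579 (rho = 0.747) across the 40 genes and r = 0.43 across the 16999 tested genes with a value, which share the same 5 libraries. Of the 40 genes, 24 lay in the lowest of 4 GC bins of all tested genes (23.1% to 43%), where the median log2 fold change of all 4250 genes was -0.29. In that bin 13 of the 24 kinetochore and checkpoint genes were lower and 0 higher, where 15.8% of all genes in the bin were lower and 1.01% higher, and the median log2 fold change of the 24 was -0.51.

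When the trend on GC content and length was removed from every library, 2 of the 40 genes were lower (MAD2L1 and CDC20; 2.34% of all genes tested) and 3 were higher (ZW10, BUB3 and SKA2; 1.9%). MAD2L1 kept a log2 fold change of -1.08 (limma adjusted p = 0.00741) and ZW10 one of 1.17 (limma adjusted p = 0.00686). CDC20 went from -0.20 to -0.37 (limma adjusted p = 0.0442) and SKA2 from 0.29 to 0.53 (limma adjusted p = 0.0273). The 13 other genes called lower before kept their sign, with limma adjusted p-values from 0.055 (SPC25) to 0.358 (SGO2). Over the 14 genes called lower, the log2 fold change left was a median of 59.3% of its first size, from 27.2% for SGO2 to 94.8% for CENPN. CENPA had a log2 fold change of 0.33 and was not called (limma adjusted p = 0.0777). The sign was negative for 32 of the 40 genes after the removal, with a median of -0.26 against -0.02 over all genes, and for 31 before. It reversed for CENPI (to 0.17), CENPM (to -0.13) and CENPT (to -0.04), none of which was called in either fit. What gives rise to the GC trend was not tested.

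**Figure D5:**
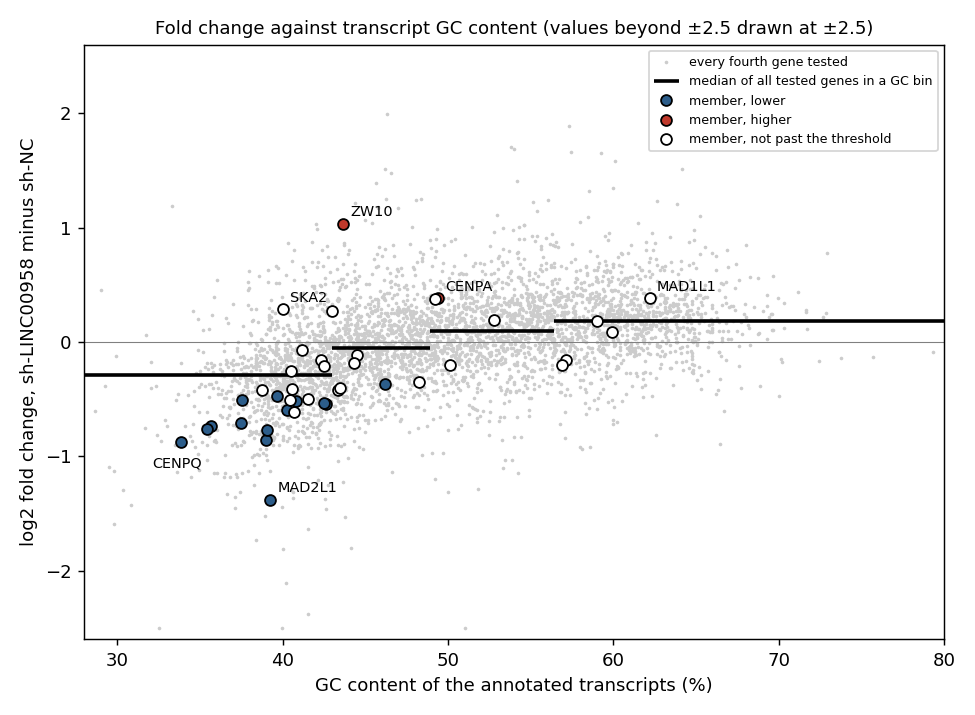
Log2 fold change (y axis, sh-LINC00958 minus sh-NC) against the GC content of annotated transcripts (x axis, %) for the 40 genes (large points, coloured by call) and for 1 in 4 of the other genes tested (grey). Black lines are the medians of all tested genes in 4 GC bins, rising from -0.29 to 0.18; ZW10 and MAD2L1 lie far from the line of their bin.

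Other genes of the same machinery were listed for comparison. Of 47 further kinetochore, checkpoint and anaphase genes tested, 9 fell, 1 rose and 37 did not pass, with a median log2 fold change of -0.21. Of all genes tested, 5.68% were lower and 4.12% higher, with a median of 0.0014. With the GC and length trend taken out, 6 of the 47 were lower and 0 higher, against 2.34% and 1.9% of all genes. Among the genes that load CENP-A at centromeres, the chaperone gene HJURP (log2 fold change -0.46) and the licensing factors MIS18A (-0.85) and OIP5 (-0.73) fell, with limma adjusted p-values of 0.0294, 0.0249 and 0.0126. CENPA itself rose, as described above, but was not called once the GC and length trend was taken out (0.33, limma adjusted p = 0.0777). CENPB, which binds a repeat of centromeric DNA, rose (0.41, limma adjusted p = 0.0366), and the centriole gene CENPJ fell (-0.57, limma adjusted p = 0.0493). HJURP, MIS18A and OIP5 were still called lower once the GC and length trend was taken out. CENPB (0.23, limma adjusted p = 0.135) and CENPJ (-0.37, limma adjusted p = 0.0969) were then not called.

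KNL1, the scaffold that docks BUB1 and BUB3, fell from 38.7 to 25.5 TPM in the means (log2 fold change -0.58, limma adjusted p = 0.0467). Its call was lost when any 1 library was left out, and with the GC and length trend taken out it stood at -0.22 (limma adjusted p = 0.392). The passenger complex genes AURKB, INCENP, CDCA8 and BIRC5, which correct faulty attachments, had log2 fold changes of -0.05, -0.02, -0.12 and -0.16, and none passed. In the anaphase promoting complex list 1 of 18 genes fell, FBXO5, which encodes the inhibitor EMI1 (-0.93, limma adjusted p = 0.0265, and -0.50 with 0.0566 without that trend). The remaining 17, subunits among them, did not pass, and 5.68% of all genes tested were lower. PTTG1, which encodes securin (-0.50, limma adjusted p = 0.0246), and CCNB1, which encodes cyclin B1 (-0.31, limma adjusted p = 0.0414), also fell. CCNB1 was not called without the trend (-0.25, limma adjusted p = 0.0721), while PTTG1 was (-0.50, limma adjusted p = 0.0269). No gene of the 5 tested for checkpoint kinases and silencing passed, and the smallest limma adjusted p-values there were those of PLK1 (-0.53, 0.0559) and TRIP13 (-0.32, 0.086). PLK1 was called lower without the GC and length trend (-0.73, limma adjusted p = 0.0262).

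Beside these, mitotic and replication genes show where the cells stood in the cycle only as RNA levels. Of 12 mitotic genes and regulators of their promoters 4 fell (CDK1, -1.25; CCNA2, -0.84; TOP2A, -0.65; CCNB1) and E2F4 rose (0.35). The shares of all genes tested were 5.68% lower and 4.12% higher. Without the GC and length trend CDK1 (-0.78) and CCNA2 (-0.64) were still called lower, while TOP2A (-0.35, limma adjusted p = 0.0542), CCNB1 and E2F4 (0.13, limma adjusted p = 0.26) were not called. MKI67, a marker of cycling cells, averaged 67.6 and 80.3 TPM with overlapping groups (limma adjusted p = 0.44). FOXM1, an activator of late cell cycle genes, had 203.5, 79.1 and 195.2 TPM against 77.3 and 79.1 TPM and did not pass (limma adjusted p = 0.199). Silenced replicate 2 was at the level of the controls, and without it FOXM1 had a log2 fold change of 1.34. FOXM1 was called higher in 1 of the 5 fits that each left out 1 library. Of 8 replication genes CCNE1 and CCNE2 fell (CCNE2 without a call once the trend was taken out, limma adjusted p = 0.0566) and PCNA, MCM2, MCM5, MCM6, RRM2 and TYMS did not pass. The part of the cell cycle distribution in the kinetochore values was not tested.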

How the data were processed

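The 40 genes, their roles and the other lists were chosen with earlier results of these data known. Per the submitters' processing notes, FastQC 0.11.2, Trimmomatic 0.36, HISAT2 2.0 and StringTie 1.3.3b were used with GRCh38. The sources used here give neither annotation release nor strandedness. The authors deposited TPM per gene, 1 column for each of the 5 libraries, and each column sums to 999931.9 to 999946.7, so depth is unknown, no counting error can be given and levels within a library are shares of its total. No sample column was left unused.

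The values were taken as log2(TPM + 1), genes with a mean of at least 1 TPM were kept, and limma 3.58.1 in R 4.3.3 (trended eBayes, two-sided) compared 3 sh-LINC00958 with 2 sh-NC libraries without a block, with p-values adjusted over 17049 genes. The log2(TPM + 1) scale understates the change of low genes. Ratios of TPM were compared with exact two-sided permutation tests. GC content and length came from GENCODE 29 transcripts, which hold 57836 of the listed gene IDs, and their trends (natural splines, 5 degrees of freedom each) were removed per library in 1 alternative. Gene coordinates are those of GENCODE 29, and promoters are those of RefSeq GRCh38.p14.

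Every one of the 40 genes could be named. Library values are given for each gene called, for the 2 with the smallest p and the 1 with the smallest difference in each role, and for complexes described member by member. Of the other lists, called genes and up to 2 more with the smallest p were named by that rule, except 1 called gene that is not reported here; the passenger complex, MKI67, FOXM1 and replication genes that did not pass were named outside it, after their values were seen. Alternatives were other pseudocounts, filters, scalings, eBayes settings, the GC and length trend, a replicate block and leaving out each library.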

Additional observations from a re-analysis of the deposited data

How the results depend on the processing

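The 14 lower and 2 higher calls rest on both sh-NC libraries, on sh-LINC00958 replicates 1 and 3, and on the shared estimate of the spread. Leaving out 1 library at a time gave 0 to 18 lower and 0 to 3 higher genes, with 0 in either direction without sh-NC replicate 1 or sh-NC replicate 2 (12 lower and 21 higher, and 6 lower and 10 higher, of all genes), 1 and 0 without sh-LINC00958 replicate 1 (0.299% and 0.211% of all genes), and 1 and 1 without sh-LINC00958 replicate 3 (0.85% and 0.657%). The median log2 fold change of the 40 genes in these fits lay between -0.30 and -0.38. MAD2L1 was called in 12 of the 16 alternatives and ZW10 in 11 of 16. MAD2L1 had adjusted p-values of 0.0528 and 0.0606 without sh-NC replicate 1 and 2, and ZW10 had 0.0731 and 0.0652, as well as 0.0518 without sh-LINC00958 replicate 1. The cause of these losses was not tested. The lower and higher counts were 2 and 1 without a filter (among 35238 genes, with 0.763% lower and 0.587% higher), 8 and 1 without a trend in eBayes (3.04% and 2.18% of all genes), and 2 and 3 with the GC and length trend removed. Pseudocounts of 0.1 and 5, a minimum of 5 TPM, both scalings and robust eBayes gave 13 or 14 lower and 2 or 3 higher genes. Of all genes, 8.99% were lower and 6.94% higher at a minimum of 5 TPM. The shares were 6.41% and 4.47% with median-ratio scaling and 6.03% and 5.01% with quantile normalization. With the pseudocounts and robust eBayes they were 5.47% to 6.06% and 4.13% to 4.14%.

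LINC00958 kept its direction throughout, with log2 fold changes of -0.89 to -1.09 when 1 library was left out, and its call was lost when sh-LINC00958 replicate 1 (adjusted p = 0.0545) or either control (0.0677 without sh-NC replicate 1, 0.0871 without the other) was left out. Nothing in the labels pairs libraries of the same number, and their deviations from the group means correlated by 0.001 and 0.05. Silenced replicate 3, which has no control of its number, gave 0.048 with sh-NC replicate 1. The deviations of 2 controls from their mean mirror each other, so these values cannot decide whether libraries were paired. With the replicate block, which leaves 1 residual degree of freedom, 0 kinetochore genes were lower and 0 higher, as also with the block and the GC and length trend removed (2 and 1 genes lower in all), and LINC00958 had log2 fold changes of -0.92 and -0.97 (adjusted p = 0.104 and 0.114).

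Over 640 fits of single genes, 492 kept direction and side of the threshold, 128 lost a call, 10 gained one and 10 changed sign. The sign changes, none of them called, were CENPI (0.17 with the GC and length trend removed and 0.18 with the block as well), CENPM (-0.13, -0.24 with the block as well, -0.0454 with the replicate block alone, and -0.0454 to 0.153 when 1 library was left out, the lowest without sh-LINC00958 replicate 3), CENPT (-0.0381 and -0.0526), CENPW (0.0273 with both) and CENPF (0.0375 with both). Depth cannot be judged from TPM.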
